A study of Mus musculus with 76 samples.

Results

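Classical MHC class I presentation was followed through 10 genes, H2-K1, H2-D1, B2m, Tap1, Tap2, Tapbp, Psmb8, Psmb9, Psmb10 and Nlrc5, out of 55536 genes in the count table. The members were chosen by symbol, from their known place in the pathway and not from a threshold on their values. All 10 passed the filter on low counts in every comparison. RNA came from 38 whole tumors grown in Balb/c mice, each sequenced as a pair of technical libraries (76 libraries) by a 3′ counting method, high-throughput 3′ digital gene expression (HT3DGE). The study asked whether catalase, an enzyme that breaks down hydrogen peroxide, changes tumors when it is placed outside the cells (EC CAT) or made inside them (IC CAT).

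The tumors formed 7 groups. Of the 11 tumors of CT26, a colorectal carcinoma line, 6 received CAT-ABP + alum and 5 received alum. Among tumors of 4T1, a mammary carcinoma line, the numbers were likewise 6 with CAT-ABP + alum and 5 with alum. CAT-ABP is recombinant catalase tagged with an alum-binding peptide, and its dose was 20 µg with 100 µg of alum, while the alum groups received 100 µg of alum with no catalase. 4T1-CAT, 4T1 cells transduced with a lentiviral vector for doxycycline-inducible human catalase and GFP, made 5 tumors given CAT-ABP + alum and 5 given alum. 4T1-control, transduced with an inducible GFP vector only, made 6 tumors, all given alum. Both engineered lines were selected for the vector and sorted as GFP+ pools, with no cloning step stated, and their hosts were on doxycycline diet from day 4, which the hosts of CT26 and 4T1 were not. Every mouse thus received alum, injected into the tumor on day 6, and tumors were taken on day 8 after inoculation of 1000000 CT26 cells or 500000 cells of a 4T1 line. These days are the ones in the sample labels, and the text of the study places diet, injection and harvest each a day later.

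MHC class I molecules show peptides from inside a cell to CD8+ T cells. Proteins are cut by the proteasome, the TAP transporter moves peptides into the endoplasmic reticulum, and tapasin holds TAP next to an empty class I heavy chain until a peptide is bound. Interferon-γ, acting in part through IRF1, raises these genes together and swaps the catalytic subunits of the constitutive proteasome for those of the immunoproteasome. NLRC5 is the transactivator of class I genes and works at a composite promoter element made of S, X and Y boxes.

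The members lie at 3 places in the genome (GRCm38, GENCODE M21). 7 are in the MHC region of chromosome 17: Tapbp (chr17:33915899-33929292, + strand), H2-K1 (chr17:33996017-34000347, − strand), Psmb9 (chr17:34181987-34187764, − strand), Tap1 (chr17:34187553-34197225, + strand), Psmb8 (chr17:34197721-34201454, + strand), Tap2 (chr17:34203527-34216321, + strand) and H2-D1 (chr17:35262730-35267499, + strand). Psmb10 (chr8:105935735-105938444, − strand) and Nlrc5 (chr8:94434356-94527272, + strand) are on chromosome 8, and B2m (chr2:122147686-122153083, + strand) is on chromosome 2. Psmb9 and Tap1 start back to back and their RefSeq promoter windows share 275 bases, from 34187306 to 34187580.

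RefSeq promoter windows (GRCm38.p6, from 250 bases before to 50 bases after a start) matched 8 of the 10 members, and Tap2 and Nlrc5 had no entry. Windows of 4 members are shown because the heavy chains and B2m share a spacing of X2 and Y box letters that Tap1 does not. Capitals mark every match, on either strand, to TGACG (X2 box core), CCAAT (Y box, ATTGG when read from the other strand) and GAAANNGAA (interferon-stimulated response element, ISRE-like). H2-K1 is at chr17:34000298-34000597 on the − strand, H2-D1 at chr17:35262844-35263143 on the + strand, B2m at chr2:122147437-122147736 on the + strand and Tap1 at chr17:34187306-34187605 on the + strand.
H2-K1: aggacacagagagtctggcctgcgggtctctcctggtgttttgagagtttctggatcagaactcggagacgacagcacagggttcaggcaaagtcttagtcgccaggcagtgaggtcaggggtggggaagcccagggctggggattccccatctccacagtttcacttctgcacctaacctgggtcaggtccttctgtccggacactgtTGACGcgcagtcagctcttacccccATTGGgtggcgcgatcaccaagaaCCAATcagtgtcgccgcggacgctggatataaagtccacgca
H2-D1: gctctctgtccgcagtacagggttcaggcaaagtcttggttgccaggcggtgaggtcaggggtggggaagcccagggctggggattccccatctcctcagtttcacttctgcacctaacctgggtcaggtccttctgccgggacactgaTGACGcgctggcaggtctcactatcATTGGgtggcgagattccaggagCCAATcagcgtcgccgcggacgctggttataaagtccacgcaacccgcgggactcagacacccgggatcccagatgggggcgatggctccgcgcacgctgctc
B2m: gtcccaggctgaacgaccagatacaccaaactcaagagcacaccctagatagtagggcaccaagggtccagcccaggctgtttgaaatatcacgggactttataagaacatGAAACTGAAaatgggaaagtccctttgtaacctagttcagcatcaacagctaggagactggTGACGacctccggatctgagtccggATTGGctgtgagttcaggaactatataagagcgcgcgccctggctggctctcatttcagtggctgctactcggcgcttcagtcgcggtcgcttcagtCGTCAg
Tap1: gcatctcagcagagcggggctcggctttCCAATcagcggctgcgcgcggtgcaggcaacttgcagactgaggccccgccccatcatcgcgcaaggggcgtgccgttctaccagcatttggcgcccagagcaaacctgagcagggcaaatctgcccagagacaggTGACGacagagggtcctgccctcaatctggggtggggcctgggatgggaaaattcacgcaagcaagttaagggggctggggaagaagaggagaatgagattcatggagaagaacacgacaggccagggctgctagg

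In H2-K1, H2-D1 and B2m, TGACG was followed after 20 bases by ATTGG. This pair, chosen after the windows had been read, stood in 31 of 32544 mouse promoter windows (0.0953%), which belonged to 27 genes. Among them was H2-M3, a nonclassical class I gene. Singly the letters were common: CCAAT was in 6 of the 8 member windows and in 37.4% of all windows, and TGACG in 5 of 8 and in 20.9%. GAAANNGAA was in the B2m window alone among the 8 (8.53% of all windows). Only these exact letters and spacing were searched as ISRE-like, and variants of the element were not. The lack of a match in the other windows, those of H2-K1 and H2-D1 included, therefore does not show that they lack an interferon response element. A match is a description of the letters and not evidence of binding.

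Tumors held between 493044 and 9077549 counts (median 4827387). The 4 members with the fewest counts in any tumor were Tap2 (1 to 336 counts per tumor), Nlrc5 (3 to 624), Tap1 (14 to 2523) and Psmb9 (34 to 2975), against 562 to 29374 for B2m. Both libraries of a tumor differed by a median of 0.15 to 0.39 on the log2 scale for 9 members and by 0.72 for Tap2. H2-K1 and H2-D1 are uncertain as single genes, because they have near-identical class I relatives and Balb/c mice carry other class I alleles than the C57BL/6 reference. Their counts were not whole numbers in 98.7% and 100.0% of libraries, but so were those of genes with no such relatives (100.0% for Tapbpl, Tyk2 and Irf9), so fractions alone do not show sharing among class I genes. The summed counts of 18 class I heavy-chain genes are therefore given beside them. The lines were checked against epithelial markers (Epcam, Krt8, Krt18, Krt19, Cdh1), whose summed level was 1379 to 2739 CPM (counts scaled to a common library total) in the 27 tumors of 4T1 lines and 18.6 to 31.6 CPM in the 11 CT26 tumors. CT26 is called a carcinoma by its label, but these tumors were nearly without the epithelial markers.

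All levels below are CPM after TMM scaling, compared for 1 gene at a time, since counts were not scaled by gene length. The CT26 alum tumors had the highest mean log2 CPM of the 7 groups for 10 of 10 members. Both CT26 groups took the top places for 9 members. Psmb8 was the exception, with the 4T1 alum tumors (222.5 ± 34.6 CPM, SD, n = 5) ahead of the CT26 CAT-ABP + alum tumors (227.5 ± 70.6 CPM, n = 6) on the log2 scale though not in the mean CPM. Neighbors in this order mostly overlapped. The ranges of CT26 alum and of the next group did so for 10 of 10 members. All 40 steps between neighbors among the 5 groups of 4T1 lines overlapped too. Overlap of neighbors sorted by their mean does not measure a difference. Groups further apart in the order could separate, as for Tap2 between 4T1-CAT with CAT-ABP + alum and 4T1-CAT with alum. Of the members, B2m alone separated every CT26 tumor from every tumor of a 4T1 line. It was at 2493 to 4377 CPM (median 3345) in 11 CT26 tumors. In 27 tumors of 4T1 lines it was at 1002 to 2058 CPM (median 1390). The share of all genes that separate the lines in this way was not computed, so this is a description only.

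**Figure D1:**
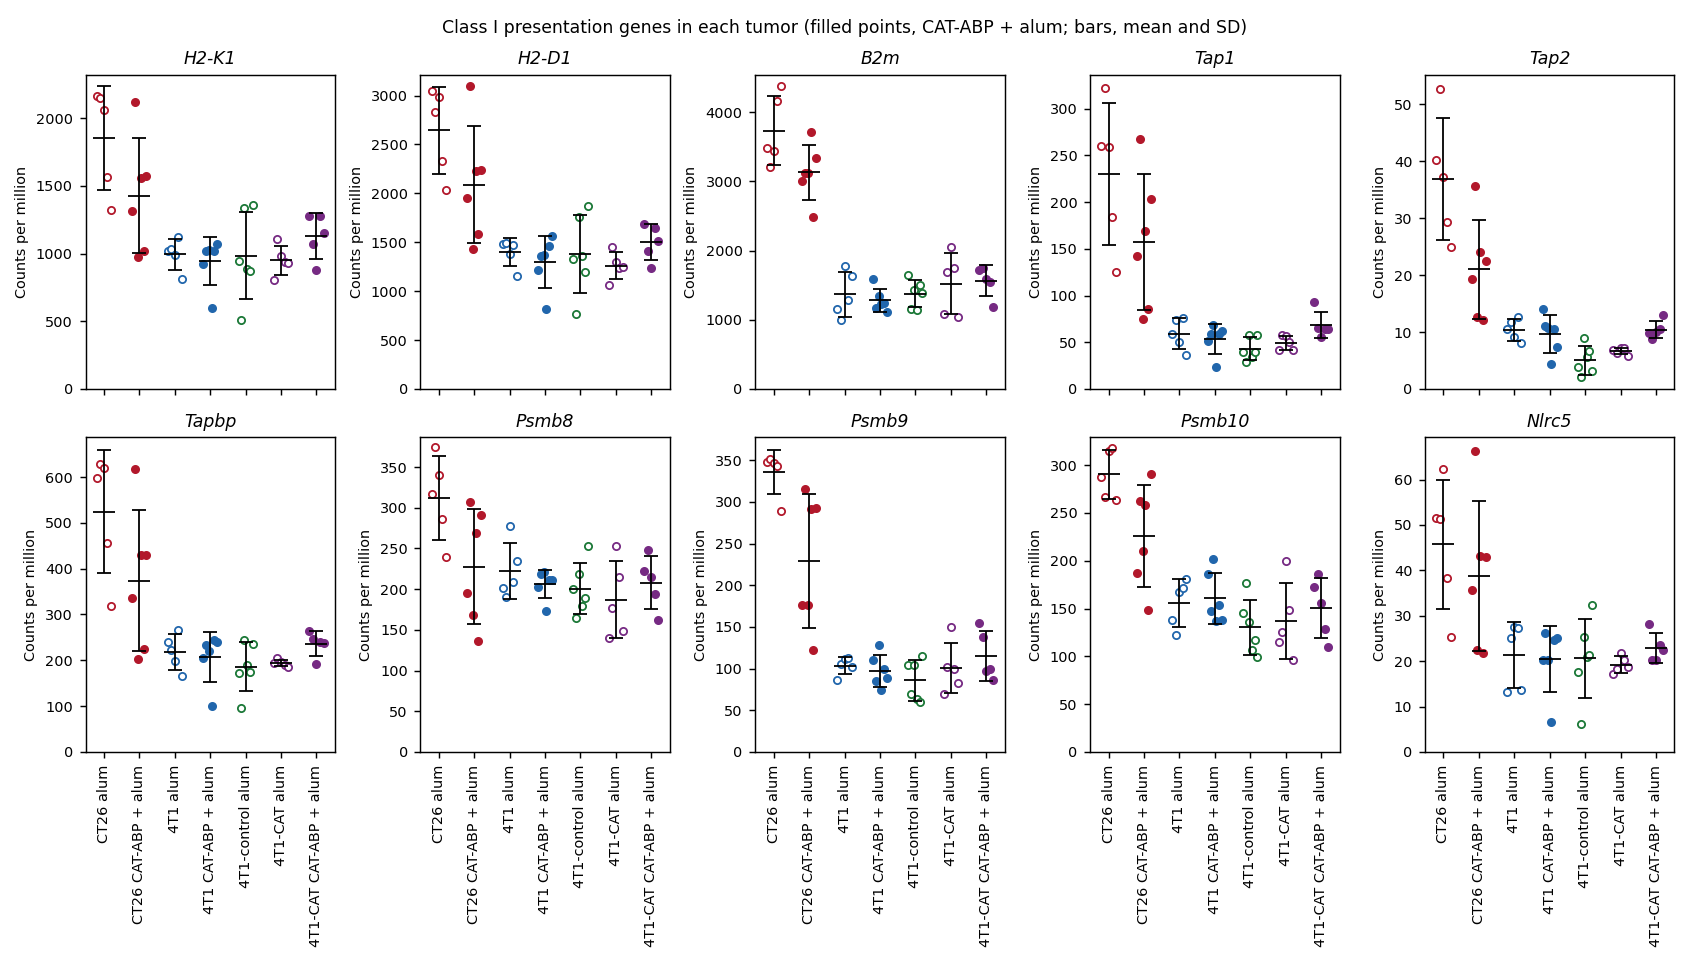
Level of each of the 10 genes (y axis, CPM after TMM scaling, from 0) in each tumor of the 7 groups (x axis). Points are tumors, filled for CAT-ABP + alum and open for alum, bars are the mean and SD, and for B2m the lowest CT26 tumor at 2493 lies above the highest tumor of a 4T1 line at 2058.

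Untreated with catalase, CT26 tumors had higher levels of every member than 4T1 tumors. The difference ranged from 1.43-fold for Psmb8 to 3.95-fold for Tap1, and 10 of 10 members passed the test (adjusted p 6.65e-08 to 0.0159, quasi-likelihood test of edgeR, Benjamini-Hochberg adjustment over all genes). Of 12817 genes tested, 21.3% were called higher in CT26. The ranges of both groups did not overlap, CT26 above 4T1, for 8 members (all but Psmb8 and Nlrc5), against 13.4% of all genes tested. The median log2 fold change was 1.198 over the members and 0.02 over all genes.

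The heavy chains present the peptide. H2-K1 was at 2162, 2148, 2062, 1562 and 1323 CPM in the CT26 alum tumors and at 1021, 1033, 987, 1122 and 814 CPM in the 4T1 alum tumors, a log2 fold change of 0.92 ± 0.18 (SE). H2-D1 was at 3049, 2828, 2987, 2332 and 2033 CPM against 1481, 1495, 1385, 1476 and 1152 CPM, a log2 fold change of 0.94 ± 0.18. In both genes every CT26 tumor was above every 4T1 tumor, and CT26 replicates 4 and 5 were the lowest of their group. The sum of the 18 heavy-chain genes, which does not depend on how reads were divided between them, was 5818 ± 939 CPM in CT26 (SD, n = 5) and 3308 ± 313 CPM in 4T1 (n = 5), and H2-K1 and H2-D1 made up 60.8% to 79.5% of it over all tumors.

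B2m encodes β2-microglobulin, the light chain of every class I molecule. It was at 3486, 3216, 3436, 4170 and 4378 CPM in CT26 and at 1158, 1002, 1774, 1281 and 1635 CPM in 4T1, 2.78-fold higher in CT26 (log2 fold change 1.48 ± 0.21, adjusted p = 3.41e-05). CT26 replicates 4 and 5, the lowest of their group for the heavy chains, were the highest for B2m.

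Tap1 and Tap2, which pair to form the peptide transporter, differed most along with Psmb9. Tap1 was at 260.1, 322, 259, 184 and 125 CPM in CT26 and at 59.1, 73.3, 50.4, 76.5 and 36.5 CPM in 4T1 (3.95-fold, log2 fold change 1.98 ± 0.25, adjusted p = 1.30e-05). Tap2 was at 40.1, 52.7, 37.3, 29.4 and 24.9 CPM against 10.48, 11.8, 9.05, 12.6 and 8.02 CPM (3.56-fold, 1.83 ± 0.21, adjusted p = 5.29e-06). Within CT26 both genes again fell to their lowest in replicates 4 and 5, which were still above all 4T1 tumors. Tapbp, which encodes tapasin, was 2.44-fold higher (319 to 628 CPM against 165 to 266 CPM, log2 fold change 1.29 ± 0.20).

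The 3 immunoproteasome subunits differed from 4T1 to unequal degrees. Psmb9 (subunit β1i) was at 348, 352, 347, 343 and 289 CPM in CT26 and at 86.2, 106, 111, 113 and 102 CPM in 4T1, 3.30-fold higher (log2 fold change 1.72 ± 0.13, adjusted p = 6.65e-08). It had the smallest adjusted p of the 10 members, with little spread in either line. Psmb10 (β2i) was 1.90-fold higher (264 to 318 CPM against 122 to 181 CPM). Psmb8 (β5i) was 1.43-fold higher (239.8 to 374 CPM against 190.6 to 277 CPM, adjusted p = 0.0159), and its call was lost without 4T1 alum replicate 2 (adjusted p = 0.0513), with refits without 1 tumor giving 0.00497 to 0.0513. Nlrc5 was 2.15-fold higher (25.4 to 62.3 CPM against 13.2 to 27.5 CPM, log2 fold change 1.11 ± 0.25, adjusted p = 0.00219).

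All CT26 tumors, but only replicates 1 and 2 of the 4T1 alum tumors, were in the first pair of sequencing pools named in the sample table. With those 7 tumors alone, only 2 of them 4T1, 10 of 10 members were called, with log2 fold changes of 0.66 (Psmb8) to 1.80 (Psmb9). The share of all genes called in that fit is not given here. Some calls were near the threshold. Over all alternatives other than leaving out a tumor, the highest adjusted p was 0.0485 for Psmb8, 0.0411 for H2-K1 and 0.0384 for H2-D1.

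Under CAT-ABP + alum, all tumors of CT26 and 4T1 were in the same pair of pools. 9 of 10 members were called higher in CT26, where 21.8% of 13016 genes were. B2m was 2.39-fold higher (2493 to 3709 CPM, median 3118, against 1120 to 1589 CPM, median 1235, log2 fold change 1.26 ± 0.15). Tap1 was 2.82-fold higher (74.4 to 268 CPM, median 156, against 23.4 to 68.9 CPM, median 58.7, log2 fold change 1.498 ± 0.27). These were the 2 members whose groups did not overlap, against 11.3% of genes tested.

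The other 7 calls were Psmb9 (2.30-fold, log2 fold change 1.205), Tap2 (2.05-fold, 1.04), Nlrc5 (1.78-fold, 0.83), Tapbp (1.77-fold, 0.83), H2-D1 (1.58-fold, 0.66), H2-K1 (1.49-fold, 0.58) and Psmb10 (1.38-fold, 0.47). Psmb8 had a log2 fold change of 0.11 (95% interval −0.26 to 0.49, adjusted p = 0.638). The call of Psmb10 (adjusted p = 0.0318) was lost without CT26 CAT-ABP + alum replicate 4 (adjusted p = 0.068) or 6 (0.0841), the range over refits without 1 tumor being 0.00796 to 0.0841. The median over the members was 0.83 and over all genes −0.02. The alum and the CAT-ABP + alum comparisons share no tumor.

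**Figure D2:**
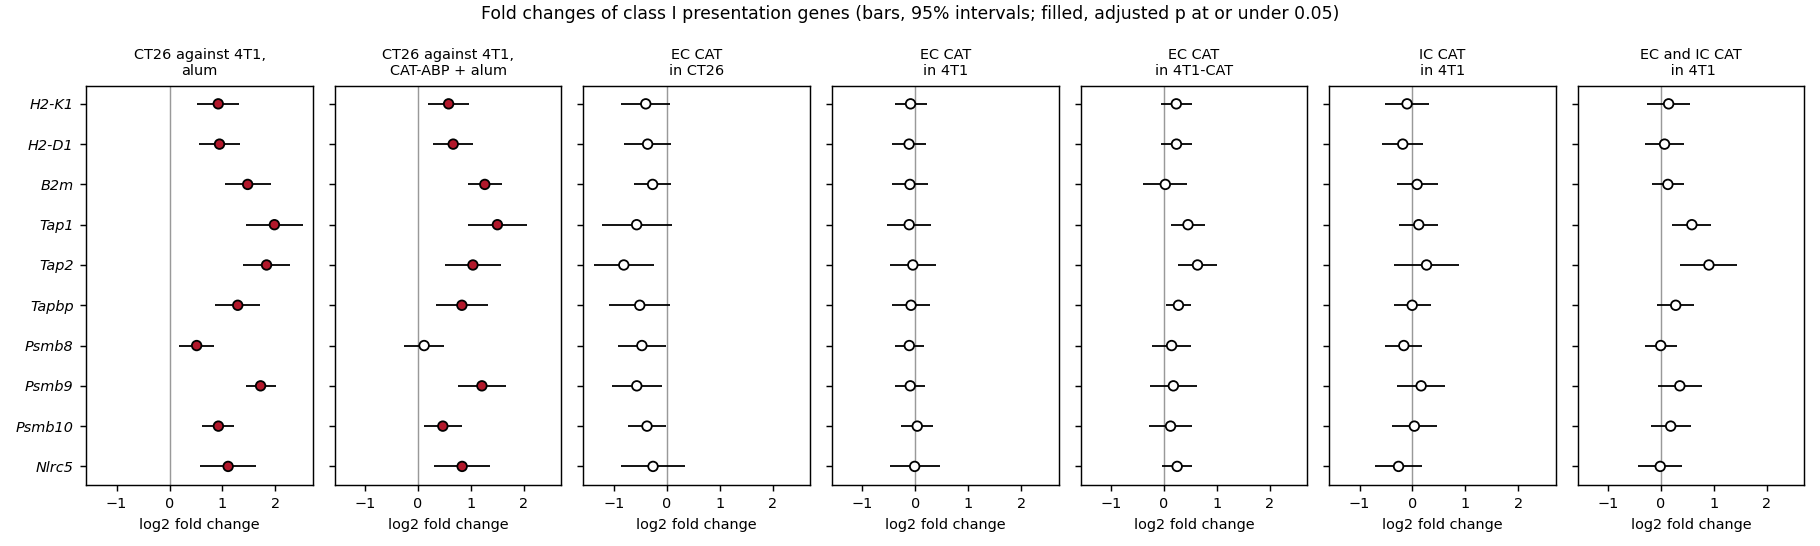
Log2 fold changes of the 10 genes (x axis) in 7 comparisons, the first 2 CT26 over 4T1 and the other 5 for catalase. Bars are 95% intervals and filled points passed an adjusted p of 0.05, which 10 and 9 members did between the lines and 0 did for catalase.

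Signals and partners of the pathway did not all move with the members. In the alum comparison, 7 of 26 tested genes of interferon signaling and class I transcription were higher in CT26 and 4 lower. Over all 12817 genes tested, 2727 were higher and 2707 lower. Whether the counts of a list differ from those of all genes was not tested. Irf1, an interferon-induced transcription factor, was 2.15-fold higher (log2 fold change 1.104 ± 0.21). Tyk2, a kinase of the type I interferon receptor, was 2.23-fold lower (−1.16 ± 0.12). Ifng, which encodes interferon-γ, was filtered out of this test for low counts and stood at 2.61 to 32.7 CPM in CT26 alum and 0.189 to 0.676 CPM in 4T1 alum. Of the other class I genes, 7 of 12 tested were higher and 3 lower. H2-T22 (3.29-fold) and H2-M3 (3.09-fold), nonclassical heavy chains, were higher, while H2-Q6 was 7.56-fold lower in CT26. Reads of H2-Q6 may be shared with near-identical relatives, and likewise those of H2-T22 and of H2-T10 and H2-Q7, named below.

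Peptide loading and trimming genes split evenly, with 5 of 19 tested higher and 5 lower. Uggt1, a folding sensor of the endoplasmic reticulum, was 2.11-fold lower in CT26 (log2 fold change −1.08 ± 0.15). Of 18 other proteasome genes, 3 were higher and 0 lower, and their median log2 fold change was 0.13. Under CAT-ABP + alum the counts were 4 higher and 4 lower of 26 for interferon signaling and 5 and 2 of 12 for other class I genes. They were 2 and 6 of 19 for peptide loading and 5 and 1 of 18 for the proteasome. Over all 13016 genes tested under this treatment, 2840 were higher and 3088 lower. H2-M3 was then 2.88-fold higher, H2-T10 2.44-fold and Irf1 1.72-fold (adjusted p = 0.0209). Jak2, a kinase of the interferon-γ receptor, was 2.44-fold lower, H2-Q6 7.07-fold lower and Uggt1 1.91-fold lower.

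Markers of some immune cells, but not of all, were higher in CT26 along with the members. In the alum groups the summed level of 7 T cell markers was 100.1 to 194 CPM in CT26 and 19.3 to 31.3 CPM in 4T1, and that of 5 natural killer (NK) cell markers was 259 to 426 CPM against 17.7 to 26.0 CPM. 6 of 6 tested T cell markers and 4 of 4 tested NK cell markers were called higher in CT26, as were 4 of 5 general leukocyte markers (436 to 922 CPM against 225 to 362 CPM) and 2 of 6 macrophage markers (687 to 939 CPM against 547 to 684 CPM). All 5 epithelial markers were called lower. Of all 12817 genes tested, 2727 were called higher in CT26 (21.3%) and 2707 lower. The summed levels of neutrophil markers (51.2 to 89.7 CPM in CT26 against 64.7 to 98.3 CPM in 4T1), dendritic cell markers (11.6 to 29.9 against 20.9 to 28.04 CPM) and fibroblast markers (994 to 1416 against 1112 to 1435 CPM) overlapped between the lines. Singly, 1 of 5 fibroblast markers was called higher in CT26 and 3 lower, 1 of 5 neutrophil markers higher, 1 of 4 tested dendritic cell markers higher and 1 lower, the 1 tested B cell marker higher, and 1 of 4 endothelial markers lower. Their part in the difference was not tested, and in whole tumors a larger number of cells of a type and more RNA per cell cannot be told apart.

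Ratios within a tumor set each immunoproteasome subunit against the constitutive subunit whose place it takes. Psmb5, Psmb6 and Psmb7 themselves had log2 fold changes of −0.03, 0.04 and 0.08 between CT26 and 4T1 under alum. The log2 ratio of Psmb9 to Psmb6 averaged −1.16 ± 0.48 (SD, n = 5) in CT26 and −2.85 ± 0.41 (n = 5) in 4T1, a difference of 1.69 or 3.22-fold (two-sided exact permutation p = 0.00794, the smallest that 5 against 5 allows). The difference was 0.86 for Psmb10 to Psmb7 (exact p = 0.00794) and 0.58 for Psmb8 to Psmb5 (exact p = 0.0159). Both of the first ratios separated the lines without overlap.

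Under CAT-ABP + alum the Psmb9 to Psmb6 ratio differed by 1.05 (exact p = 0.0108) and the Psmb8 to Psmb5 ratio by 0.04 (exact p = 0.855). In CT26, the Psmb8 to Psmb5 ratio was 1.44 ± 0.56 (n = 6) with CAT-ABP + alum and 2.12 ± 0.26 (n = 5) with alum (difference −0.68, exact p = 0.0390). Between 4T1-CAT and 4T1 under CAT-ABP + alum, the Psmb9 to Psmb6 ratio differed by 0.59 (exact p = 0.0238), where line and sequencing pool cannot be told apart. After adjustment over the 27 ratio comparisons made, 0 passed (smallest adjusted p = 0.0974). With groups of 5 or 6 tumors, the exact p cannot fall low enough for a ratio to pass alone after this adjustment. The 0 is therefore not evidence that the ratios were equal.

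**Figure D3:**
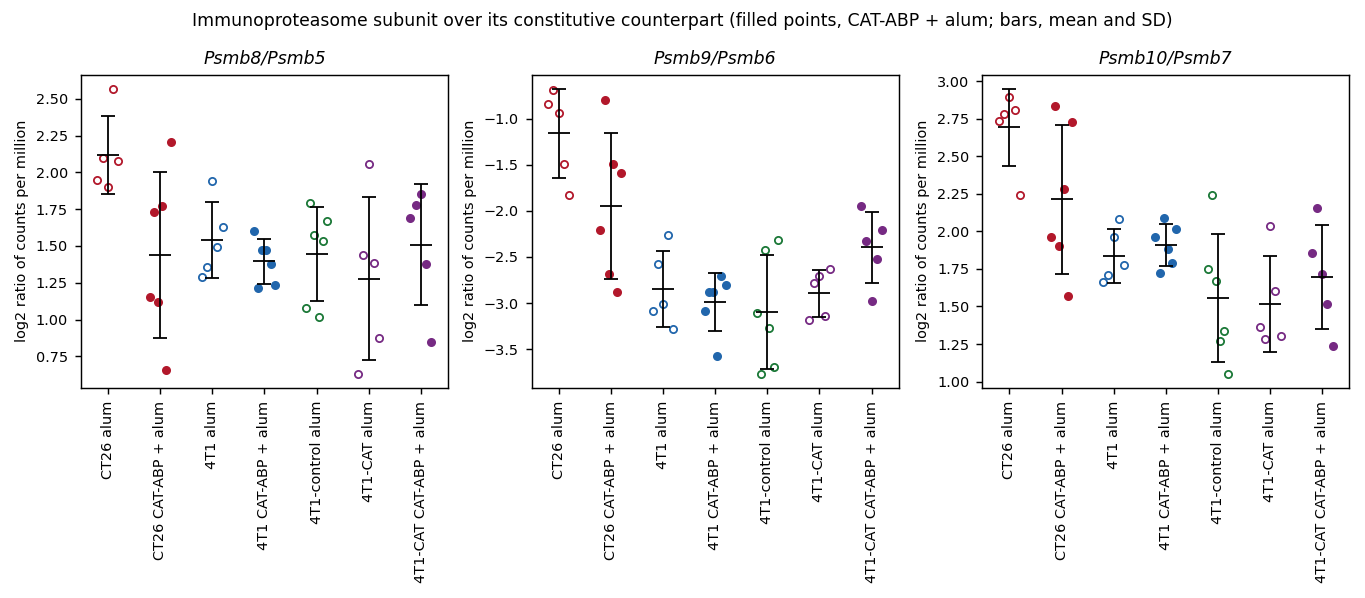
Log2 ratio of each immunoproteasome subunit to its constitutive counterpart (y axis, from CPM) in each tumor of the 7 groups (x axis), with mean and SD. Psmb9 over Psmb6 averaged −1.16 in CT26 alum and −2.85 in 4T1 alum, and each panel has its own scale.

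Extracellular catalase in CT26 gave log2 fold changes below 0 for all 10 members, from −0.26 (Nlrc5) to −0.81 (Tap2), but none passed the test. The adjusted p was 0.9997 for each, and 0% of 12830 genes were called (0 by edgeR, 1 by DESeq2, 311 at an unadjusted p under 0.05). The median was −0.43 over the members and −0.004 over all genes. 4 members had an unadjusted p under 0.05: Tap2 (−0.81, 95% interval −1.38 to −0.24, p = 0.00821), Psmb9 (−0.57, p = 0.0224), Psmb8 (−0.47, p = 0.0440) and Psmb10 (−0.37, p = 0.0471). The intervals of all 10 reached from −1.38 to 0.34. The groups of every member overlapped.

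Tap2 was at 24.9 to 52.7 CPM (median 37.3) in the CT26 alum tumors and at 19.3, 35.7, 12.7, 24.1, 12.1 and 22.4 CPM in the 6 given CAT-ABP + alum. Psmb9 was at 289 to 352 CPM with alum and at 176, 316, 177, 291, 122 and 293 CPM with CAT-ABP + alum. In both genes replicate 2 was within the range of the alum tumors and replicates 1, 3 and 5 were below it. Replicates 4 and 6 were below it for Tap2 (24.1 and 22.4 CPM) and within it for Psmb9. B2m was at 2493 to 3709 CPM with CAT-ABP + alum and 3216 to 4378 CPM with alum (log2 fold change −0.27).

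NK cell markers summed to 259 to 426 CPM (median 409) with alum and to 104 to 422 CPM (median 244) with CAT-ABP + alum. T cell markers summed to 100.1 to 194 and 78.1 to 173 CPM, and leukocyte markers to 436 to 922 and 343 to 756 CPM. Neutrophil markers leaned the other way, at 51.2 to 89.7 CPM with alum and 74.55 to 141.9 CPM with CAT-ABP + alum. Macrophage markers summed to 687 to 939 and 714 to 959 CPM. No marker of these lists was called. Irf1 had a log2 fold change of −0.48 (p = 0.154) and Ifng of −1.19 (p = 0.0897), each with an adjusted p of 0.9997. The part of these cells in the members' values was not tested. The CT26 alum tumors are the same ones that stand in the comparison of the lines under alum.

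In 4T1, extracellular catalase left the members within −0.12 to 0.04 on the log2 scale (95% intervals −0.53 to 0.46), with 0 members called among 13092 genes tested (0%, 0 by DESeq2, 377 genes at an unadjusted p under 0.05). The lowest unadjusted p of a member was 0.395. Treatment and sequencing pool were partly mixed here, which enters the interaction below too. All 6 treated tumors were in the first pair of pools, but 3 of the 5 alum tumors were in the second. As a test of the difference between the lines, the interaction with CT26 gave −0.19 to −0.78 for the members and 0 calls (0% of 14160 genes, 0 by DESeq2, 509 at an unadjusted p under 0.05). Tap2 had the lowest p (−0.78 ± 0.35, p = 0.0359, adjusted p = 1.00). A difference in response between the lines was thus not shown.

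In 4T1-CAT tumors, which already make human catalase, extracellular catalase gave log2 fold changes of 0.03 to 0.64, all above 0, with 0 members called and 0% of 13093 genes (2000 genes at an unadjusted p under 0.05, 249 called by DESeq2). Tap2 stood at 9.89, 8.79, 9.92, 10.6 and 12.9 CPM with CAT-ABP + alum and at 6.91, 6.31, 7.16, 7.16 and 5.83 CPM with alum. Every treated tumor was above every alum tumor (log2 fold change 0.64 ± 0.17, p = 0.00207, adjusted p = 0.187), as in 1.8% of genes tested. It was the only member without overlap. T cell markers summed to 37.4 to 62.1 CPM (median 38.3) in these treated tumors and to 37.6 to 114.7 CPM (median 78.2) with alum, and their part was not tested.

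Tap1 had a log2 fold change of 0.46 ± 0.15 (p = 0.00811, adjusted p = 0.208), at 92.8, 65.7, 55.7, 64.0 and 64.0 CPM against 41.4, 57.5, 56.4, 49.96 and 42.0 CPM. Tapbp had one of 0.28 ± 0.11 (p = 0.0218, adjusted p = 0.255). B2m had one of 0.03 (95% interval −0.39 to 0.45). The median over the members was 0.24 and over all genes −0.0007. The interaction with the same treatment in parental 4T1 gave 0.68 ± 0.26 for Tap2 (p = 0.0143, adjusted p = 0.530) and 0.57 ± 0.26 for Tap1 (p = 0.0405, adjusted p = 0.554), with 0% of 13851 genes called (0 by DESeq2, 1218 at an unadjusted p under 0.05). Its parental 4T1 part carries the mixing of treatment and sequencing pool given above.

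Both catalases together, 4T1-CAT with CAT-ABP + alum against 4T1-control with alum, again put the transporter genes first. Tap2 had a log2 fold change of 0.90 ± 0.26 (p = 0.00243, adjusted p = 0.104) and Tap1 of 0.58 ± 0.17 (p = 0.00363, adjusted p = 0.112), the other 8 members lying between −0.01 and 0.36. Of 12781 genes, 3 were called (0.0235%), none of them members, with 2162 at an unadjusted p under 0.05 and 510 called by DESeq2. Tap2 was at 2.05 to 8.87 CPM (median 4.72) in 4T1-control, or 1 to 29 counts in a tumor, so counting error is large. Its adjusted p was 0.0342 with DESeq2, 0.0419 with no filter and 0.0301 without 4T1-control replicate 3, and that of Tap1 was 0.0232 with no filter and 0.0368 without the same tumor. Over all alternatives other than leaving out a tumor, the adjusted p ranged from 0.0342 to 0.197 for Tap2 and from 0.0232 to 0.281 for Tap1. The treated tumors are those of the comparison within 4T1-CAT, so both results rest on the same 5 tumors.

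Intracellular catalase alone, 4T1-CAT against 4T1-control under alum, gave −0.26 to 0.27 for the members (95% intervals −0.70 to 0.88), with 0 called and 0% of 12534 genes (637 at an unadjusted p under 0.05, 6 called by DESeq2). The lowest p of a member was 0.228. The human transgene is not in the mouse count table, so its level was not checked here.

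Between 4T1-control and 4T1 under alum, which differ by vector, doxycycline diet and partly by sequencing pool, 0 members were called and 0% of 12431 genes (1307 at an unadjusted p under 0.05, 16 called by DESeq2). Tap2 had a log2 fold change of −0.90 ± 0.28 (p = 0.00384, adjusted p = 0.262), and −0.80 ± 0.33 within the second pair of pools. 4T1-control serves in this comparison and in the 2 before it, and its low Tap2 level enters each. Between 4T1-CAT and 4T1 under CAT-ABP + alum, where line, diet and sequencing pool cannot be told apart, members ranged from −0.11 to 0.30 with 0 called (0.0151% of 13235 genes, 566 at an unadjusted p under 0.05, 8 called by DESeq2). In these 2 comparisons and in all those of catalase, 0 genes of the peptide loading, proteasome, interferon and other class I lists were called in either direction.

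Within groups the members varied together from tumor to tumor, though not as 1 block. The correlations are of log2 CPM centered on each group's mean, are given as a description, and share library and depth. Over the 11 CT26 tumors, H2-K1, H2-D1, Tap1, Tap2, Tapbp and Nlrc5 formed 15 pairs with r of 0.93 to 0.99. B2m had a median r of 0.01 with the other 9. Psmb8, Psmb9 and Psmb10 lay between, with median r of 0.91, 0.80 and 0.62. These blocks were drawn after the values had been seen.

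Over the 27 tumors of 4T1 lines, the same 6 genes had a median r of 0.85, B2m, Psmb8, Psmb9 and Psmb10 had one of 0.65 among themselves, and the median between both blocks was 0.12. Depth moved with the first block there: 4T1 CAT-ABP + alum replicate 4 and 4T1-control replicate 2, the tumors with the lowest totals, had low values of it, and the r of Nlrc5 with the log2 total was 0.83. Without these 2 tumors the medians were 0.66, 0.70 and 0.05, and the r of Nlrc5 with depth was 0.31.

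**Figure D4:**
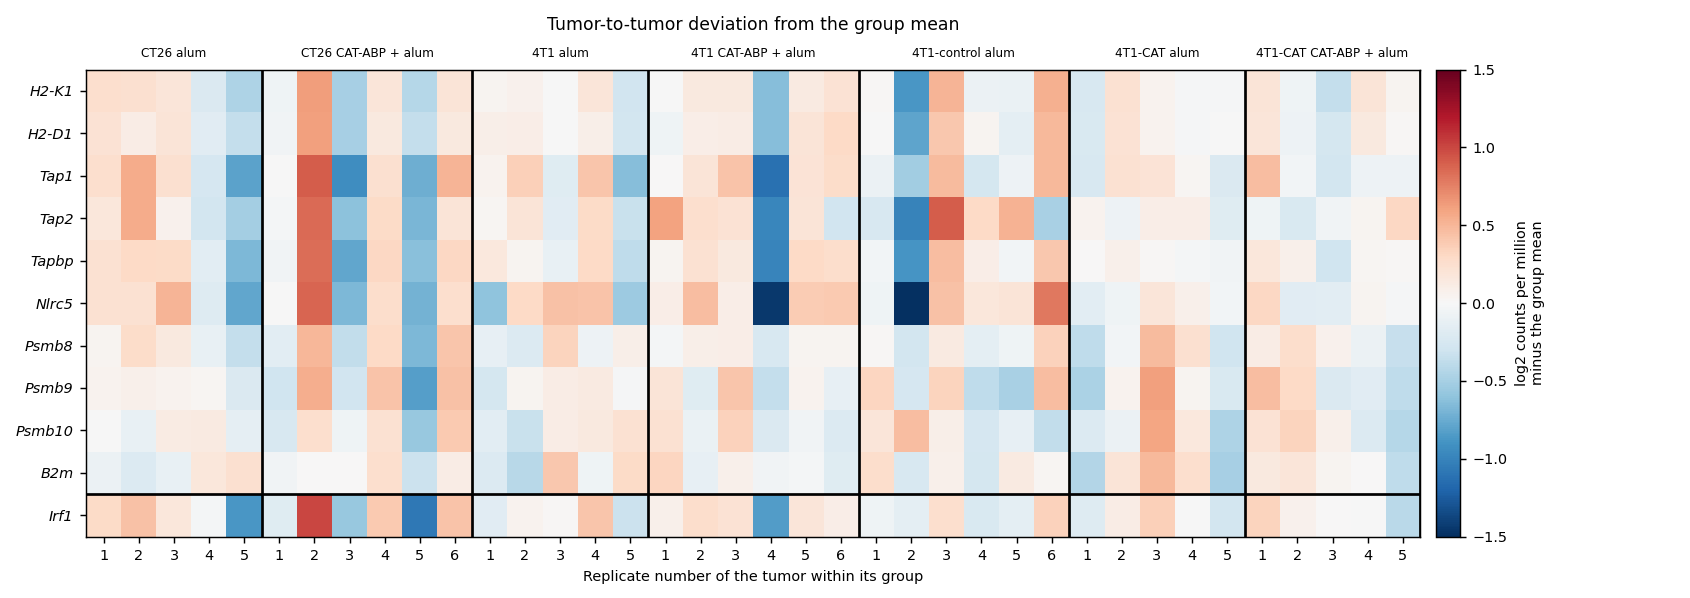
Deviation of log2 CPM from the group mean (color, −1.5 to 1.5) for the 10 genes and Irf1 (rows) in 38 tumors (columns). Most rows shift together within CT26 tumors while B2m does not, and the dark blue columns are 4T1 CAT-ABP + alum replicate 4 and 4T1-control replicate 2.

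The genes most like the mean of the 10 members, over 38 tumors and 11195 genes by Pearson r of centered log2 CPM, were Lgals3bp (0.91), Irf1 (0.91), Rnf213 (0.88), H2-Q7 (0.87), H2-T22 (0.86), Cxcl16 (0.86), Nampt (0.85), Itgal (0.85), Irgm2 (0.85) and Wars (0.83). Irf1 had r of 0.98 over the 11 CT26 tumors and 0.85 over the 27 tumors of 4T1 lines, where H2-T22 (0.91) and Lgals3bp (0.90) had higher ones. Ptprc, the leukocyte marker CD45, had r of 0.88 in CT26 and −0.28 in the 4T1 lines. The latter includes the tumors of lowest total, 4T1 CAT-ABP + alum replicate 4 and 4T1-control replicate 2. Their centered member means were −0.67 and −0.59, and each had the highest Ptprc level of its group (97.9 and 55.4 CPM). The r of Ptprc without these tumors was not computed, so the sign of −0.28 may rest on them.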

How the data were processed

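The authors deposited estimated counts per gene, without normalization, for 76 libraries made by HT3DGE and run through the Smart-seq2 pipeline on Terra. Whether molecular identifiers were collapsed is not given in the sources used here. Fractional values made up 39.7% of those above 0. Libraries held 46233 to 6958626 counts (median 2075009). For each tumor, the counts of its technical libraries were added and then rounded, so n counts tumors. Gene IDs were matched to GENCODE M21 (55536 of 55536).

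Genes were filtered with filterByExpr, scaled by TMM and tested with edgeR 4.0.16 (quasi-likelihood, R 4.3.3) in models of the 2 groups compared, or of 4 groups for interactions, with Benjamini-Hochberg adjustment at 0.05. Log2 CPM used a prior count of 2. Intervals are 95%. Ratios were tested by exact two-sided permutation (scipy 1.17.1). The scripts were tested on simulated data.

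The members and lists were chosen with earlier results of these data known. Named were all members, per comparison up to 3 other pathway genes per direction with the smallest adjusted p (1 of them is not reported here), Irf1 and Ifng, the 10 genes most like the members' mean (at least 20 counts per tumor on average) and summed cell type markers. Alternatives were DESeq2 1.42.0, RLE scaling, no filter, 1 model over 7 groups, a replicate block, pools and leaving out 7 libraries of low depth or each tumor. The precision of values in 5 or 6 tumors is that of the spread between tumors.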

Additional observations from a re-analysis of the deposited data

Results flagged for a closer look

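Members vary together within a tumor, so combinations of a member and a group are not independent and are not set against chance. In 70 such combinations, 8 held a tumor far from the others of its group. 5 were 4T1 CAT-ABP + alum replicate 4: H2-K1 at 595 CPM (others 921 to 1070), Tap1 at 23.4 (51.4 to 68.9), Tapbp at 100.0 (205 to 245), Psmb8 at 174 (202 to 221) and Nlrc5 at 6.68 (20.3 to 26.3). 4T1-control replicate 2 had Tapbp at 96.5 CPM (173 to 245) and Nlrc5 at 6.16 (17.7 to 32.4). These tumors had the lowest totals of their groups, 837403 and 493044 counts. CT26 alum replicate 5 had Psmb9 at 289 CPM (343 to 352).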

How the results depend on the processing

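Of 260 member values under alternatives, 257 kept direction and side of the threshold, 3 became calls (Tap2 and Tap1 with both catalases, given above) and 0 reversed. Of 457 member values from 141 refits without a tumor, 452 kept both, 3 lost a call and 2 gained one. Apart from these refits, the number of members called changed with both catalases only (1 with DESeq2, 2 with no filter). The number of genes called moved more. It was 1 with DESeq2 and 1 with no filter for EC CAT in CT26, and 16 with no filter for EC CAT in 4T1. For EC CAT in 4T1-CAT it was 249 with DESeq2, 47 with no filter and 3 with the replicate block. For IC CAT it was 6 with DESeq2 and 131 with no filter. For both catalases it was 510 with DESeq2, 532 with no filter, 31 with 7 groups, 1 with the replicate block and 142 without libraries of low depth. For 4T1-control against 4T1 it was 16, 130, 10 and 14 with DESeq2, no filter, 7 groups and no low-depth libraries, and 1 within the second pool pair. For 4T1-CAT against 4T1 it was 8, 13, 1 and 0 with DESeq2, no filter, 7 groups and the block. With no filter the interactions had 2 (CT26 against 4T1) and 1 (4T1-CAT against 4T1). The cause was not tested. Without 1 tumor, counts ranged from 0 to 1 for EC CAT in 4T1-CAT and for IC CAT, 0 to 575 for both catalases (575 without 4T1-control replicate 3; members 0 to 2), 0 to 6 for 4T1-control against 4T1, 0 to 2 for 4T1-CAT against 4T1, 4823 to 5718 for CT26 against 4T1 under alum (members 9 to 10) and 5396 to 6421 under CAT-ABP + alum (members 8 to 9). Replicate numbers did not pair tumors: in no comparison did every pair of deviations correlate above 0.1. No member call changed with the block. A pool covariate could not be fitted for 4T1-CAT against 4T1. Depth limits Tap2 and Nlrc5 most, with as few as 1 and 3 counts in a tumor.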

Other observations

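Some genes next to the members in the pathway, named after their values were seen, also differed between the lines. Under alum, Psme1 and Psme2, the subunits of the interferon-inducible PA28 proteasome cap, were 1.92-fold and 2.32-fold higher in CT26 than in 4T1 (log2 fold changes 0.94 ± 0.12 and 1.22 ± 0.20, SE). Erap1, which trims peptides in the endoplasmic reticulum, was 2.02-fold higher (1.02 ± 0.15). Under CAT-ABP + alum the log2 fold changes were 0.50 for Psme1, 0.95 for Psme2 and 0.56 for Erap1, each past the threshold (edgeR, adjusted p at most 0.0148).

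The sum of the 18 heavy-chain genes was 4560 ± 1238 CPM (SD, n = 6) in CT26 with CAT-ABP + alum and between 3140 ± 593 (4T1 with CAT-ABP + alum, n = 6) and 3599 ± 435 (4T1-CAT with CAT-ABP + alum, n = 5) over the 5 groups of 4T1 lines.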
